A study of Mus musculus with 12 samples.

Results

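Open chromatin was described at 10 genes of the Trem2-type lipid-associated macrophage programme (Trem2, Tyrobp, Cd9, Gpnmb, Spp1, Lpl, Fabp5, Lgals3, Plin2 and Hilpda) in myeloid cells of mice with diet-induced steatohepatitis. A peak was assigned to a gene when its centre lay inside it, or when that gene was the nearest protein-coding gene within 100 kb in mm10. This gave 440 peaks over the 6 deposited lists, which merged into 124 regions of 100354 in all, and all 10 genes of 21900 protein-coding genes had at least 1. The peak lists came from ATAC-seq, which reads out accessible DNA through the insertions of a transposase, on 12 libraries of cells sorted from C57BL/6J mice, 2 for each list. Mice on the NASH diet, a model of nonalcoholic steatohepatitis, gave F4/80-Hi Tim4-Neg Kupffer cells (KN-RM), F4/80-Hi Tim4-Pos Kupffer cells (KC-N), Cd11b-Hi recruited liver macrophages with low Ly6C (Ly6CLo-RM) or high Ly6C (Ly6CHi-RM), and Ly6C-Hi monocytes of the blood (Blood-Ly6CHi-NASH). Mice on the control diet gave F4/80-Hi Tim4-Pos Kupffer cells only (KC-H). The diet contrast is therefore that of KC-N with KC-H, and the blood cells had no control-diet counterpart here. Liver cells were released by enzymatic digestion in the presence of flavopiridol, an inhibitor of transcription, and the effect of digestion cannot be told apart from that of the tissue in a comparison of liver with blood. The sources used here do not give the age and sex of the mice, the time on the diet or any pooling of animals.

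Lipid-associated macrophages gather where lipid accumulates, as in obese fat tissue and in fatty liver. TREM2 is a surface receptor for lipids, lipoproteins and dying cells, and it signals through the adaptor TYROBP (DAP12) to the kinase SYK. The programme takes up and handles lipid with lipoprotein lipase (LPL) and the fatty acid binding protein FABP5, stores it in droplets coated by PLIN2 and protected by HILPDA, and comes with the surface protein CD9, the glycoprotein GPNMB, osteopontin (Spp1) and galectin-3 (Lgals3). An ATAC-seq peak marks accessible DNA such as a promoter or an enhancer. It does not measure expression, and the nearest gene is not always the one that a distal region controls.

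Each list was made by the authors from both libraries of its group, so no value had a replicate error and no difference between lists was tested. The lists held 34293 peaks in KN-RM, 50550 in KC-N, 54621 in Ly6CLo-RM, 61492 in Ly6CHi-RM, 69616 in Blood-Ly6CHi-NASH and 63501 in KC-H. Because KN-RM was the shortest list, a region that it lacks counts for less than one that a longer list lacks. Each peak carries a score, a whole number given by the authors' processing, with a median of 34 in KN-RM, 38 in KC-N, 40 in Ly6CLo-RM, 46 in Ly6CHi-RM and in Blood-Ly6CHi-NASH, and 48 in KC-H. Scores place a peak within its own list and were not compared between lists. A rank of 70% below means that 70% of the peaks of that list scored lower, and peaks of the best-scored 50% of a list are called high-scoring and the others low-scoring.

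Promoter sequences were taken from RefSeq (GRCm38.p6) for the 7 of the 10 genes that matched an entry; Tyrobp, Lpl and Fabp5 are named only. The 250 bases before the start are printed 5′ to 3′ on the strand of the gene for 5 genes, because these are the starts at which list membership differed, with Lgals3 as the case held by all 6 lists. Capitals mark the bases that lie inside a deposited peak of at least 1 list. Spp1 is at chr5:104434861-104435110 on the plus strand, with 183 of the 250 bases in a peak. Gpnmb is at chr6:49036268-49036517 on the plus strand, with 87 bases in a peak. Trem2 is at chr17:48346151-48346400 on the plus strand, with 90 bases in a peak. Cd9 is at chr6:125494761-125495010 on the minus strand, with 122 bases in a peak. Lgals3 is at chr14:47373610-47373859 on the plus strand, with 109 bases in a peak.
Spp1: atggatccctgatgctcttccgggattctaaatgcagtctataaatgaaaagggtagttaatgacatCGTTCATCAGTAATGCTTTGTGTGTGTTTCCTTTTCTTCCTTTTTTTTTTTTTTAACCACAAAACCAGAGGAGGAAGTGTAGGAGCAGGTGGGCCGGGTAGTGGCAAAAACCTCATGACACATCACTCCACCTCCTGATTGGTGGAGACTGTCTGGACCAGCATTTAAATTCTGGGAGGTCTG
Gpnmb: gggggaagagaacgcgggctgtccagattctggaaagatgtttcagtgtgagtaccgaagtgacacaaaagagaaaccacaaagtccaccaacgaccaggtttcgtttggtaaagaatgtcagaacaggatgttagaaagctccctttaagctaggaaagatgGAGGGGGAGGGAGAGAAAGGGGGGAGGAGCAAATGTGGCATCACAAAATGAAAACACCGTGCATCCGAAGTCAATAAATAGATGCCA
Trem2: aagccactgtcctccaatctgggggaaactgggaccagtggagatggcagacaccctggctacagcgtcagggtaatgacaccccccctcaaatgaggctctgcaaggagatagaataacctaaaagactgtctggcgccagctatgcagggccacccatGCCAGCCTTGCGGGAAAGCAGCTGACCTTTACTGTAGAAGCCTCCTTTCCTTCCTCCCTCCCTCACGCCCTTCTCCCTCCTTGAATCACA
Cd9: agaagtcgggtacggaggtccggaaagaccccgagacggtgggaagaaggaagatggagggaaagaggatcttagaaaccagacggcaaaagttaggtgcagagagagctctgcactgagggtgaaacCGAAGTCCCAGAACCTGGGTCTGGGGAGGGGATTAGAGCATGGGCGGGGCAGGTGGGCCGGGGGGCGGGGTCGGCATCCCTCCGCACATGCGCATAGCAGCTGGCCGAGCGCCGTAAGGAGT
Lgals3: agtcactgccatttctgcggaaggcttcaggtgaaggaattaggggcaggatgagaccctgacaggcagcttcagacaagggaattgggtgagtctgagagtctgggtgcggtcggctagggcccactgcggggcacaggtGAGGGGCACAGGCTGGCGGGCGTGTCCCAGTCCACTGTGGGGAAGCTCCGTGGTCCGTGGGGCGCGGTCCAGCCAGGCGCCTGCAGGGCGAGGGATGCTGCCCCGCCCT

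The printed windows differed in base composition. The GC content was 43.6% at Spp1 and 47.2% at Gpnmb, below the median of 55.6% over all promoters of the table, and 56.0% at Trem2, 61.6% at Cd9 and 66.0% at Lgals3. Spp1 held 3 CpG pairs, Trem2 4, Gpnmb 7, Lgals3 13 and Cd9 16, against a median of 10.

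Short motifs were searched on both strands of the 250 bases before the start, and each is given with its share over the 21263 promoters searched. A match describes letters only. The ETS-class letters GGAAGT, of the kind that PU.1 binds, stood at bases 111 to 106 before the Spp1 start, within the capitals, and in 20.4% of promoters. The AP-1 letters TGANTCA stood 9 to 3 bases before the Trem2 start, within the capitals, and in the Hilpda promoter, against 6.13% of promoters. The letters AGGTCA, an element of nuclear receptors such as LXR and PPAR, were found on the opposite strand at Trem2, 68 to 63 bases before the start, and at Plin2, against 12.8% of promoters. The hypoxia response core, ACGTG or GCGTG, was found at Trem2, Lgals3, Plin2 and Hilpda and in 44.0% of promoters. Hilpda, a known target of hypoxia-inducible factors, held this core 3 times before its second listed start, all inside a peak. The TATA box letters TATAAA were found only at Spp1, 211 to 206 bases before the start and outside the capitals, and in 11.6% of promoters. The MAF element TGCTGA was found only at Hilpda among the 7 genes, against 14.9% of promoters. The E-box CACGTG, the site of MiT/TFE factors, had no match in these windows of the 7 genes and stood in 6.63% of promoters.

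The 10 genes had 59 peaks in KN-RM, 89 in KC-N, 67 in Ly6CLo-RM, 82 in Ly6CHi-RM, 75 in Blood-Ly6CHi-NASH and 68 in KC-H. The count was thus highest in KC-N, the second shortest list. As a share of the list this was 0.172% in KN-RM, 0.176% in KC-N, 0.123% in Ly6CLo-RM, 0.133% in Ly6CHi-RM, 0.108% in Blood-Ly6CHi-NASH and 0.107% in KC-H. The 95% Wilson intervals here and below cover counting error only. They ran from 0.143% to 0.217% for KC-N and from 0.0845% to 0.136% for KC-H, and those did not overlap. The 10 genes were chosen with earlier results of these data known, so neither these intervals nor those below test an excess. The median number of peaks per gene was 5 in KN-RM, 9 in KC-N, 5 in Ly6CLo-RM, 7 in Ly6CHi-RM, 6.5 in Blood-Ly6CHi-NASH and 7 in KC-H. Over the 15833 genes with a peak in any list, that median was 1 in KN-RM, 3 in Blood-Ly6CHi-NASH and 2 in the other lists. Of the 124 regions, 32 (25.8%) lay inside one of the genes and 39 (31.5%) lay over 20 kb away.

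**Figure D1:**
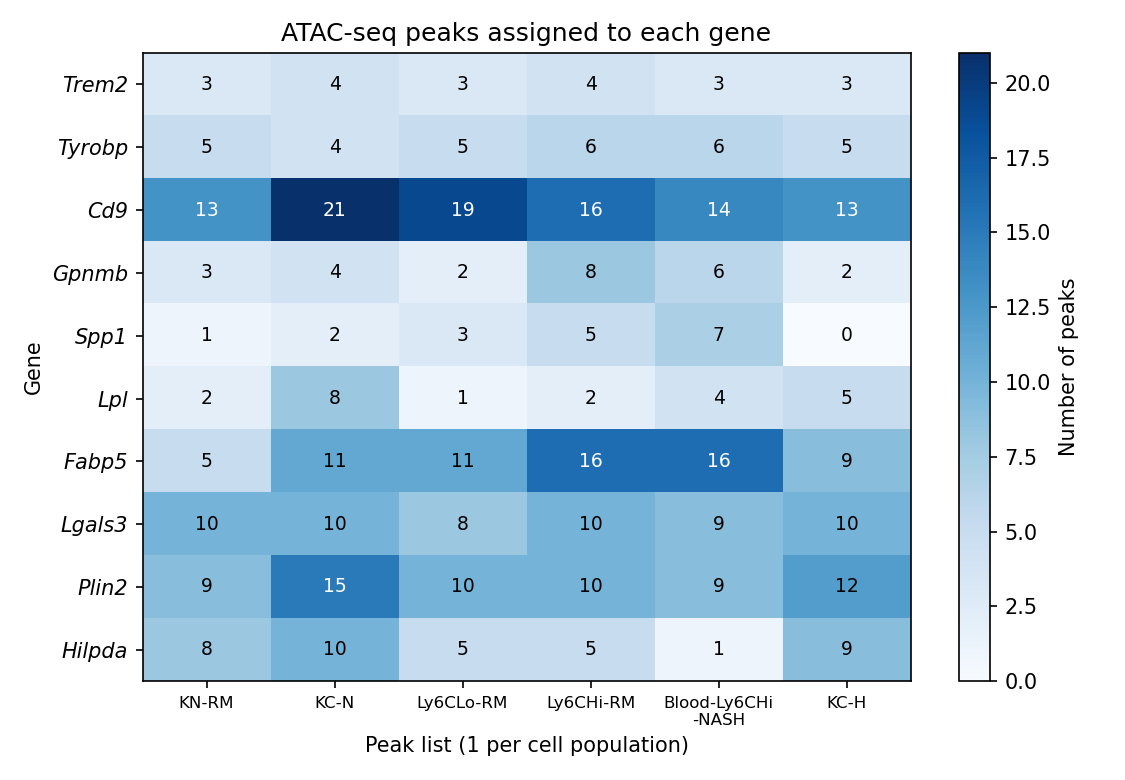
Number of ATAC-seq peaks assigned to each of the 10 genes (rows) in each of the 6 peak lists (columns), with darker blue for more peaks. Cd9 had 13 to 21 peaks in every list, Spp1 had 0 in KC-H and 7 in Blood-Ly6CHi-NASH, and Hilpda had 1 in Blood-Ly6CHi-NASH and 10 in KC-N.

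Trem2, the receptor, is a gene of 5876 bp at chr17:48346401-48352276 with few peaks: 3 in KN-RM, 4 in KC-N, 3 in Ly6CLo-RM, 4 in Ly6CHi-RM, 3 in Blood-Ly6CHi-NASH and 3 in KC-H. The region over its start, chr17:48346311-48346564, had a score of 39 in KN-RM (58.8% below), 59 in KC-N (74.7% below), 74 in Ly6CHi-RM (71.8% below), 67 in Blood-Ly6CHi-NASH (68.5% below) and 45 in KC-H (45.6% below). Ly6CLo-RM had no peak there. That made Trem2 1 of 48 genes (0.274% of 17492 with a promoter entry) whose start was in every list but Ly6CLo-RM. The start was high-scoring in each of the 4 other NASH-diet lists and low-scoring in KC-H.

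A region 1.09 kb inside Trem2 was held by all 6 lists, with scores of 24 in KN-RM, 51 in KC-N, 41 in Ly6CLo-RM, 57 in Ly6CHi-RM, 61 in Blood-Ly6CHi-NASH and 62 in KC-H. A region 9.36 kb before the start was also in all 6 lists, with scores of 28 in KN-RM, 40 in KC-N, 18 in Ly6CLo-RM, 30 in Ly6CHi-RM, 43 in Blood-Ly6CHi-NASH and 72 in KC-H. This was the highest-scoring Trem2 region of KC-H, with 70.1% below, and among the lowest peaks of Ly6CLo-RM, with 2.3% below. The fourth region, chr17:48355906-48356137, lay 3.75 kb past the end of Trem2, near the middle of the 7640 bp that separate it from Treml1, a receptor gene of the same cluster. It had a score of 38 in KC-N, 23 in Ly6CLo-RM and 23 in Ly6CHi-RM, and no peak in KN-RM, Blood-Ly6CHi-NASH or KC-H. Only the KC-N peak was high-scoring.

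Tyrobp, the signalling adaptor of TREM2 and of other receptors, had 5 peaks in KN-RM, 4 in KC-N, 5 in Ly6CLo-RM, 6 in Ly6CHi-RM, 6 in Blood-Ly6CHi-NASH and 5 in KC-H. The centres of its 6 regions all lay outside its lower end, while Hcst, which encodes the related adaptor DAP10, lies 130 bp from its higher end and had 2 to 4 peaks assigned to it in each list. The region 32 bp outside its lower end, chr7:30413633-30413867, had scores of 43 in KN-RM, 52 in KC-N, 55 in Ly6CLo-RM, 69 in Ly6CHi-RM, 83 in Blood-Ly6CHi-NASH and 100 in KC-H. It was high-scoring in all 6 lists, from 65.7% below in Ly6CLo-RM to 82.8% below in KC-H. A second region, 0.932 kb out, was also high-scoring in all 6, with 56 in KN-RM, 61 in KC-N, 94 in Ly6CLo-RM, 131 in Ly6CHi-RM, 115 in Blood-Ly6CHi-NASH and 132 in KC-H. Tyrobp regions were thus shared widely, with 4 of 6 in all lists, and none was held by a single list.

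Cd9, a tetraspanin of the cell surface, spans chr6:125460266-125494760 and had the most peaks over the 6 lists together, at 96. There were 13 in KN-RM, 21 in KC-N, 19 in Ly6CLo-RM, 16 in Ly6CHi-RM, 14 in Blood-Ly6CHi-NASH and 13 in KC-H. Fabp5 had as many in Ly6CHi-RM and more in Blood-Ly6CHi-NASH, with 16 in each. The Cd9 start had a peak in Ly6CLo-RM only, with a low score of 22 (10.4% below), so the start printed above carried 1 low-scoring peak over the 6 lists. A peak counts as at a start when it overlaps the stretch from 250 bp before to 50 bp after it. Blood-Ly6CHi-NASH had a peak just outside that stretch, 0.278 kb inside Cd9, at 30 (24.4% below). The highest-scoring Cd9 regions were distal. The region 14.8 kb past the 3′ end, chr6:125445358-125445650, scored 57 in KN-RM, 71 in KC-N, 102 in Ly6CLo-RM, 117 in Ly6CHi-RM, 101 in Blood-Ly6CHi-NASH and 122 in KC-H, and was high-scoring in all 6. The region 33.7 kb past the 3′ end scored 45 in KN-RM, 55 in KC-N, 83 in Ly6CLo-RM, 121 in Ly6CHi-RM, 139 in Blood-Ly6CHi-NASH and 92 in KC-H, again high-scoring in all 6.

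Inside Cd9, a pair of regions belonged to the NASH-diet lists. Region chr6:125483482-125483720, 11.2 kb from the start, scored 41 in KN-RM (62.6% below), 66 in KC-N (79.7% below), 60 in Ly6CLo-RM (69.7% below), 81 in Ly6CHi-RM (75.5% below) and 44 in Blood-Ly6CHi-NASH (47.1% below). Region chr6:125482154-125482413, 12.5 kb from the start, scored 28 in KN-RM, 38 in KC-N, 44 in Ly6CLo-RM, 77 in Ly6CHi-RM and 47 in Blood-Ly6CHi-NASH. KC-H had no peak at either. A neighbouring region 12.9 kb from the start was in all 6 lists, with a score of 66 in KC-H (66.4% below). Ly6CLo-RM alone held regions chr6:125444008-125444208, past the 3′ end, at a score of 64 (72.3% below) and chr6:125461334-125461534, inside the gene, at 48 (59.2% below). The region 26.4 kb past the 3′ end was in all lists but ranked apart: 28 in KN-RM (29.7% below), 51 in KC-N (67.3% below), 79 in Ly6CLo-RM (80.4% below), 103 in Ly6CHi-RM (84.2% below), 70 in Blood-Ly6CHi-NASH (70.4% below) and 25 in KC-H (3.43% below). It was therefore near the bottom of the KC-H list and high-scoring in KC-N.

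**Figure D2:**
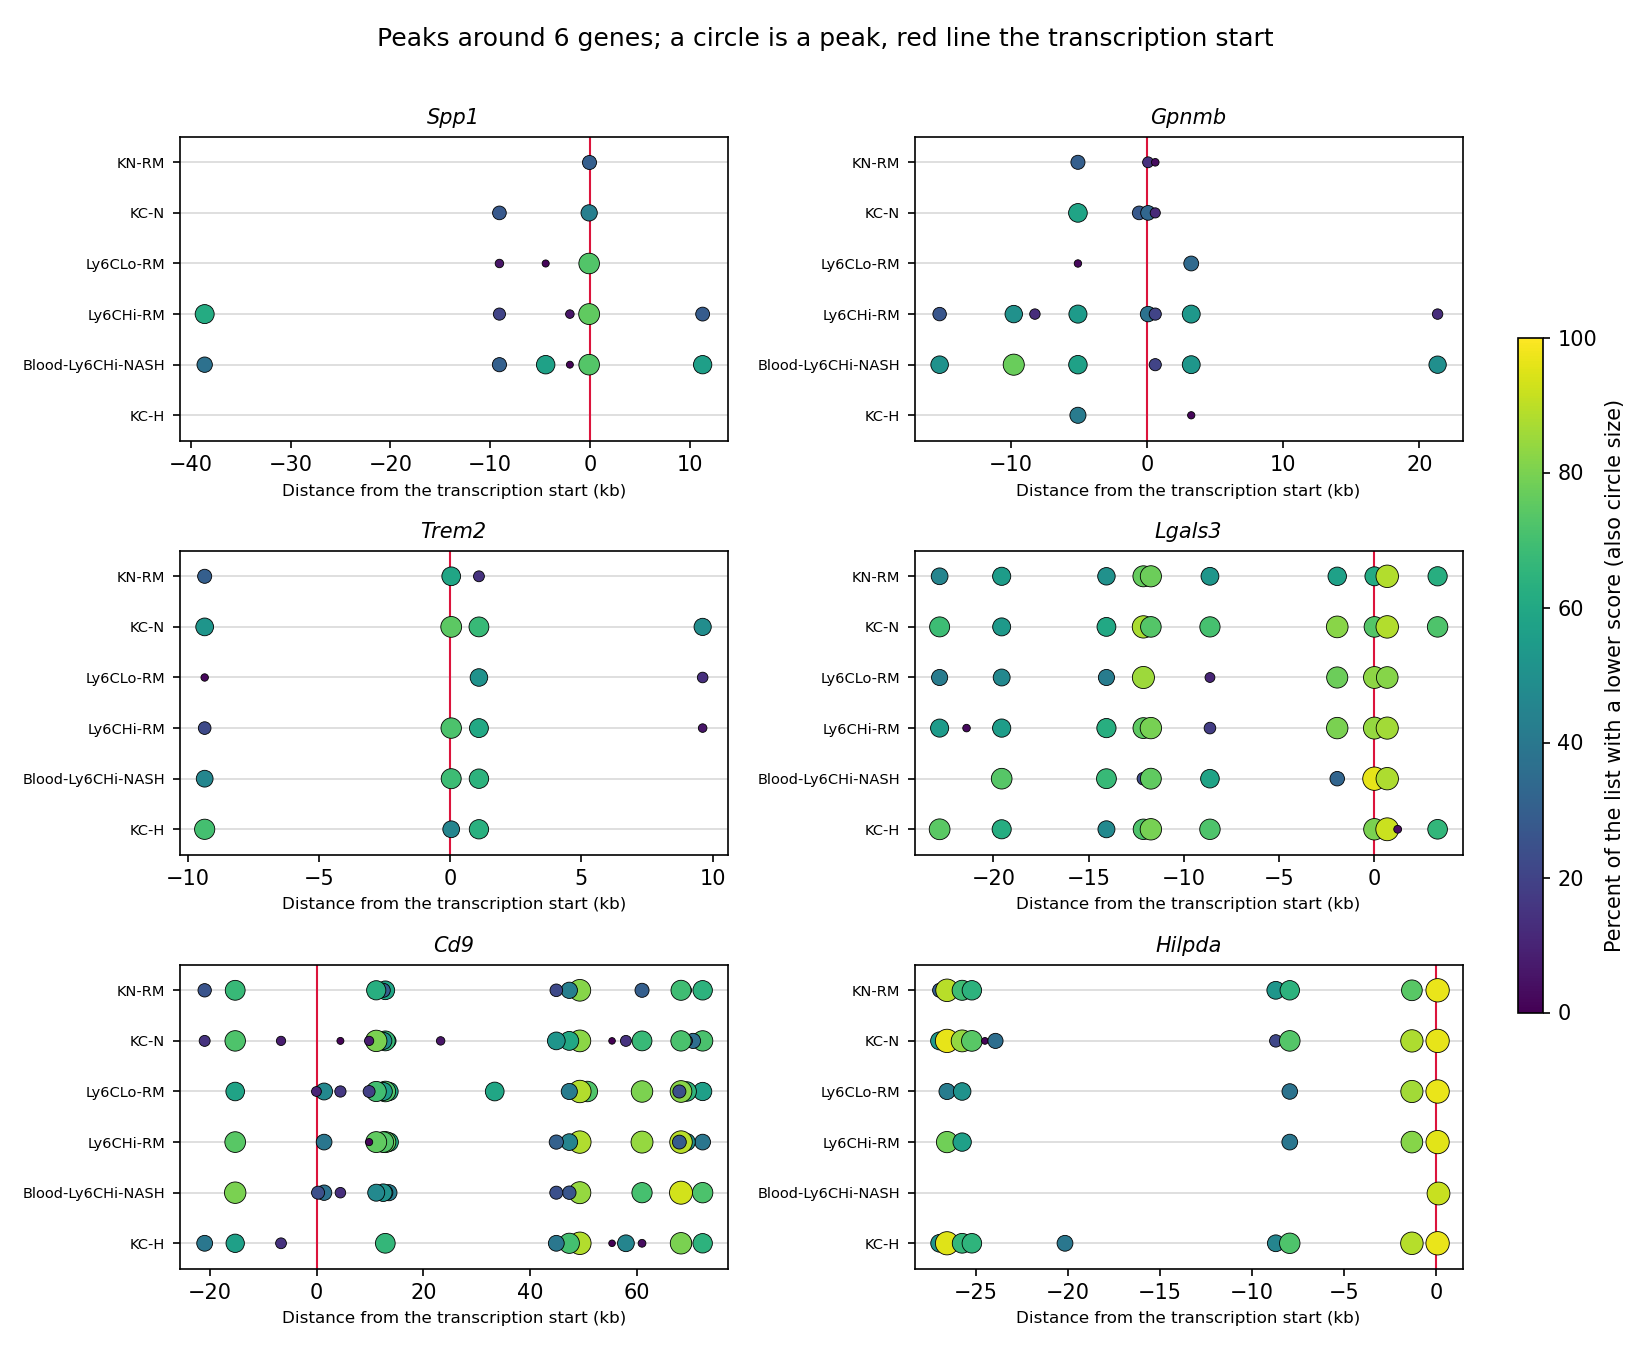
Peaks around 6 of the genes in the 6 lists (rows); each circle is 1 peak, placed by its distance in kb from the transcription start (red line), and its colour and size give the percent of its list with a lower score. At Spp1 the KC-H row is empty and 5 lists have a peak at the start; at Hilpda the Blood-Ly6CHi-NASH row has only the start, with 91.7% of the list below.

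Gpnmb, which encodes a transmembrane glycoprotein of lysosomes and phagocytes, had 3 peaks in KN-RM, 4 in KC-N, 2 in Ly6CLo-RM, 8 in Ly6CHi-RM, 6 in Blood-Ly6CHi-NASH and 2 in KC-H. The region over its start, chr6:49036431-49036711, scored 24 in KN-RM (14.4% below), 31 in KC-N (33.1% below) and 38 in Ly6CHi-RM (37.6% below). Ly6CLo-RM, Blood-Ly6CHi-NASH and KC-H had none, and all 3 peaks were low-scoring. A region 0.583 kb inside the gene scored 20 in KN-RM, 24 in KC-N, 29 in Ly6CHi-RM and 28 in Blood-Ly6CHi-NASH, low in each. Upstream, the region 5.1 kb before the start was in all 6 lists, with 28 in KN-RM, 44 in KC-N, 18 in Ly6CLo-RM, 51 in Ly6CHi-RM, 53 in Blood-Ly6CHi-NASH and 42 in KC-H. The region 9.82 kb before the start was held by Ly6CHi-RM at 47 (50.1% below) and by Blood-Ly6CHi-NASH at 83 (77.3% below) and by no other list. Both Ly6C-high lists also shared regions 15.3 kb before and 21.3 kb after the start, so 3 of the 9 Gpnmb regions were theirs alone. Over the 10 genes, regions of both Ly6C-high lists alone were 8 of 124 (6.45%), near the 6.15% of all merged regions. Of these, 3 each lay at Gpnmb and Spp1 and 2 at Fabp5. A single peak of KC-N, 0.598 kb before the start, was in no other list and scored 29 (27.7% below).

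Spp1, which encodes osteopontin, a secreted phosphoprotein that binds integrins and CD44, was the one gene of the 10 with no peak in KC-H. It had 1 peak in KN-RM, 2 in KC-N, 3 in Ly6CLo-RM, 5 in Ly6CHi-RM, 7 in Blood-Ly6CHi-NASH and 0 in KC-H. The region at its first start, chr5:104434928-104435149, covers most of the printed promoter and scored 28 in KN-RM (29.7% below), 35 in KC-N (42.6% below), 65 in Ly6CLo-RM (73.0% below), 81 in Ly6CHi-RM (75.5% below) and 75 in Blood-Ly6CHi-NASH (73.2% below). It was high-scoring in the Ly6CLo-RM, Ly6CHi-RM and blood lists and low-scoring in both F4/80-Hi NASH-diet lists. A start with a peak in all 5 NASH-diet lists and not in KC-H was found for 49 of 17492 genes, or 0.28%. Since blood monocytes also held it, and no control-diet monocytes are at hand, its tie to the diet can be read only between KC-N and KC-H.

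Away from the start, Spp1 regions lay mostly in the Ly6C-high lists. The region 38.6 kb upstream scored 58 in Ly6CHi-RM (61.0% below) and 37 in Blood-Ly6CHi-NASH (37.1% below). The region 11.3 kb downstream scored 33 in Ly6CHi-RM and 52 in Blood-Ly6CHi-NASH. The region 4.43 kb upstream scored 17 in Ly6CLo-RM, near the bottom of that list, and 53 in Blood-Ly6CHi-NASH (57.2% below). The region 9.06 kb upstream was low-scoring in each of the 4 lists that held it, with 29 in KC-N, 20 in Ly6CLo-RM, 29 in Ly6CHi-RM and 33 in Blood-Ly6CHi-NASH.

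Lgals3, the gene of galectin-3, a galactoside-binding lectin of macrophages, had 10 peaks in KN-RM, 10 in KC-N, 8 in Ly6CLo-RM, 10 in Ly6CHi-RM, 9 in Blood-Ly6CHi-NASH and 10 in KC-H. The start, chr14:47373751-47373985, was high-scoring in all 6 lists, with 40 in KN-RM (60.8% below), 57 in KC-N (73.1% below), 86 in Ly6CLo-RM (83.2% below), 103 in Ly6CHi-RM (84.2% below), 161 in Blood-Ly6CHi-NASH (96.3% below) and 92 in KC-H (80.0% below). A region 0.682 kb inside the gene was also high-scoring in all 6, with 67 in KN-RM, 85 in KC-N, 82 in Ly6CLo-RM, 109 in Ly6CHi-RM, 113 in Blood-Ly6CHi-NASH and 140 in KC-H. The blood cells and the control-diet Kupffer cells thus had high-scoring peaks at and near the Lgals3 start as well.

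The exception was a region 1.94 kb before the Lgals3 start, chr14:47371753-47372080. It scored 38 in KN-RM (57.0% below), 70 in KC-N (82.1% below), 73 in Ly6CLo-RM (77.6% below), 91 in Ly6CHi-RM (79.9% below) and 34 in Blood-Ly6CHi-NASH (32.1% below), and KC-H had no peak. It was high-scoring in all 4 NASH-diet liver lists and low-scoring in blood. The region 12.1 kb before the start was in all lists, with 51 in KN-RM, 81 in KC-N, 92 in Ly6CLo-RM, 80 in Ly6CHi-RM, 29 in Blood-Ly6CHi-NASH and 75 in KC-H, and was low-scoring in the blood list only. A region 3.33 kb inside the gene was held by the F4/80-Hi lists alone, at 41 in KN-RM, 56 in KC-N and 65 in KC-H. A region 22.8 kb upstream was in all liver lists, with 33 in KN-RM, 52 in KC-N, 35 in Ly6CLo-RM, 51 in Ly6CHi-RM and 80 in KC-H, and not in the blood list.

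Lpl encodes the lipase that frees fatty acids from lipoprotein triglycerides. It had 2 peaks in KN-RM, 8 in KC-N, 1 in Ly6CLo-RM, 2 in Ly6CHi-RM, 4 in Blood-Ly6CHi-NASH and 5 in KC-H, so KC-N stood highest and Ly6CLo-RM lowest. A region at the lower end of the gene, chr8:68880422-68880767, scored 28 in KN-RM (29.7% below), 46 in KC-N (61.3% below), 29 in Blood-Ly6CHi-NASH (22.3% below) and 39 in KC-H (36.5% below). Neither Ly6CLo-RM nor Ly6CHi-RM had a peak there. The region in all 6 lists lay 7.78 kb past the higher end, with 25 in KN-RM, 49 in KC-N, 38 in Ly6CLo-RM, 62 in Ly6CHi-RM, 51 in Blood-Ly6CHi-NASH and 61 in KC-H. Of the 10 Lpl regions, 3 were in KC-N alone, at low scores of 21, 24 and 27.

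Fabp5, a carrier of fatty acids in the cytoplasm, had 5 peaks in KN-RM, 11 in KC-N, 11 in Ly6CLo-RM, 16 in Ly6CHi-RM, 16 in Blood-Ly6CHi-NASH and 9 in KC-H. It sits in a wide stretch without other protein-coding genes, with the nearest 178901 bp away on its lower side and 163241 bp on its higher side, and 13 of its 20 regions lay over 20 kb out. The region 41 bp outside its lower end, chr3:10012427-10012661, was high-scoring in all 6 lists, with 50 in KN-RM, 71 in KC-N, 64 in Ly6CLo-RM, 67 in Ly6CHi-RM, 97 in Blood-Ly6CHi-NASH and 102 in KC-H. Just inside the gene, chr3:10013085-10013318 was held by the NASH-diet lists and not by KC-H, with 20 in KN-RM (2.85% below), 34 in KC-N (40.4% below), 38 in Ly6CLo-RM (46.6% below), 41 in Ly6CHi-RM (42.2% below) and 55 in Blood-Ly6CHi-NASH (59.1% below). These were low-scoring peaks in all lists but blood. Past the gene, chr3:10022545-10022761 scored 27 in KN-RM (26.0% below), 60 in KC-N (75.6% below) and 47 in Ly6CHi-RM (50.1% below) and had no peak in Ly6CLo-RM, Blood-Ly6CHi-NASH or KC-H. The distal pair 71.0 and 71.2 kb past the gene was high-scoring in Ly6CLo-RM (52 and 68), Ly6CHi-RM (74 and 61) and Blood-Ly6CHi-NASH (65 and 65). In KC-N and KC-H, which held only the farther one, it was low-scoring, at 34 and 27, and KN-RM had neither.

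Plin2, the coat protein of lipid droplets in most cells, had 9 peaks in KN-RM, 15 in KC-N, 10 in Ly6CLo-RM, 10 in Ly6CHi-RM, 9 in Blood-Ly6CHi-NASH and 12 in KC-H. Its start, chr4:86669897-86670179, had scores of 52 in KN-RM (77.5% below), 86 in KC-N (88.9% below), 55 in Ly6CLo-RM (65.7% below), 71 in Ly6CHi-RM (70.1% below), 38 in Blood-Ly6CHi-NASH (38.6% below) and 113 in KC-H (86.5% below). It was high-scoring in all 5 liver lists, control diet included, and low-scoring in the blood list. The highest-scoring Plin2 region in each list lay 20.2 kb before the gene, chr4:86690322-86690548, at 68 in KN-RM, 99 in KC-N, 81 in Ly6CLo-RM, 112 in Ly6CHi-RM, 109 in Blood-Ly6CHi-NASH and 154 in KC-H, from 81.3% below in Ly6CLo-RM to 93.9% below in KC-H. The region chr4:86686641-86686866, 16.5 kb before the gene, scored 38 in KN-RM (57.0% below), 70 in KC-N (82.1% below), 22 in Ly6CLo-RM (10.4% below) and 25 in Ly6CHi-RM (10.4% below), with no peak in blood or in KC-H. It was high-scoring in both F4/80-Hi NASH-diet lists and low-scoring in both Cd11b-Hi lists. KC-N alone held chr4:86679805-86680005 at 42 (55.4% below), and KC-H alone held chr4:86657222-86657422, inside the gene, at 58 (60.0% below).

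Hilpda, which encodes a droplet protein that inhibits the lipase ATGL, had 8 peaks in KN-RM, 10 in KC-N, 5 in Ly6CLo-RM, 5 in Ly6CHi-RM, 1 in Blood-Ly6CHi-NASH and 9 in KC-H. Its start, chr6:29272460-29272698, was among the best peaks of every list, with 90 in KN-RM (96.5% below), 121 in KC-N (96.3% below), 151 in Ly6CLo-RM (96.6% below), 158 in Ly6CHi-RM (95.6% below), 130 in Blood-Ly6CHi-NASH (91.7% below) and 183 in KC-H (96.7% below). The blood list held nothing else at this gene. The region 1.3 kb before the start, chr6:29271048-29271318, scored 49 in KN-RM (74.0% below), 82 in KC-N (87.5% below), 94 in Ly6CLo-RM (86.1% below), 96 in Ly6CHi-RM (81.8% below) and 124 in KC-H (89.0% below). The region 26.6 kb before the start, chr6:29245827-29246049, scored 68 in KN-RM (89.1% below), 119 in KC-N (96.1% below), 35 in Ly6CLo-RM (41.6% below), 87 in Ly6CHi-RM (78.3% below) and 164 in KC-H. Of the 11 Hilpda regions, 4 were held by all 5 liver lists and not by blood, and 3 by the F4/80-Hi lists alone.

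Over all 10 genes, regions held by all 6 lists were as frequent as in the whole series: 31 of 124 (25.0%, interval 18.2% to 33.3%), against 25.4% of all merged regions. Regions held by all 5 NASH-diet lists and not by KC-H were 5 of 124 (4.03%, 1.73% to 9.09%), against 0.842% of all regions: 2 at Cd9 and 1 each at Spp1, Fabp5 and Lgals3. Without the KN-RM list that count was 8. Regions held by all 5 liver lists and not by blood were 7 of 124 (5.65%, 2.76% to 11.2%), against 0.937%: 4 at Hilpda and 1 each at Cd9, Lgals3 and Plin2. With a 20 kb gene window that count was 3. Counts of regions and list-specific peaks under other settings, here and below, come without the number examined and the share of the whole lists. Regions held by the 3 F4/80-Hi lists alone, KN-RM, KC-N and KC-H, were 6 of 124 (4.84%, 2.24% to 10.2%), against 1.89%, with 3 of them at Hilpda. Regions of KC-N alone were 12 of 124 (9.68%, 5.62% to 16.2%), against 2.13%: 3 each at Lpl and Plin2, 2 each at Cd9 and Hilpda and 1 each at Gpnmb and Fabp5. These KC-N regions scored 18 to 42 and 1 of the 12 was high-scoring. Regions of KC-H alone, in contrast, were 4 of 124 (3.23%, 1.26% to 8.0%), against 9.84% of all regions. In each of the last 5 sets the interval left out the share of all regions. The 10 genes were chosen with earlier results of these data known, so this does not test an excess or a deficit. Several regions of a gene are also neighbours and not independent. Regions held by any 5 of the 6 lists, the NASH-diet and liver sets included, were 19 of 124 (15.3%, 10.0% to 22.7%), against 9.27%. That interval also left out the share of all regions. The remaining counted sets had intervals that held it. Examples were KC-N and KC-H alone (4.84%, 2.24% to 10.2%, against 3.64%) and Ly6CHi-RM alone (1.61%, 0.443% to 5.69%, against 1.81%).

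**Figure D3:**
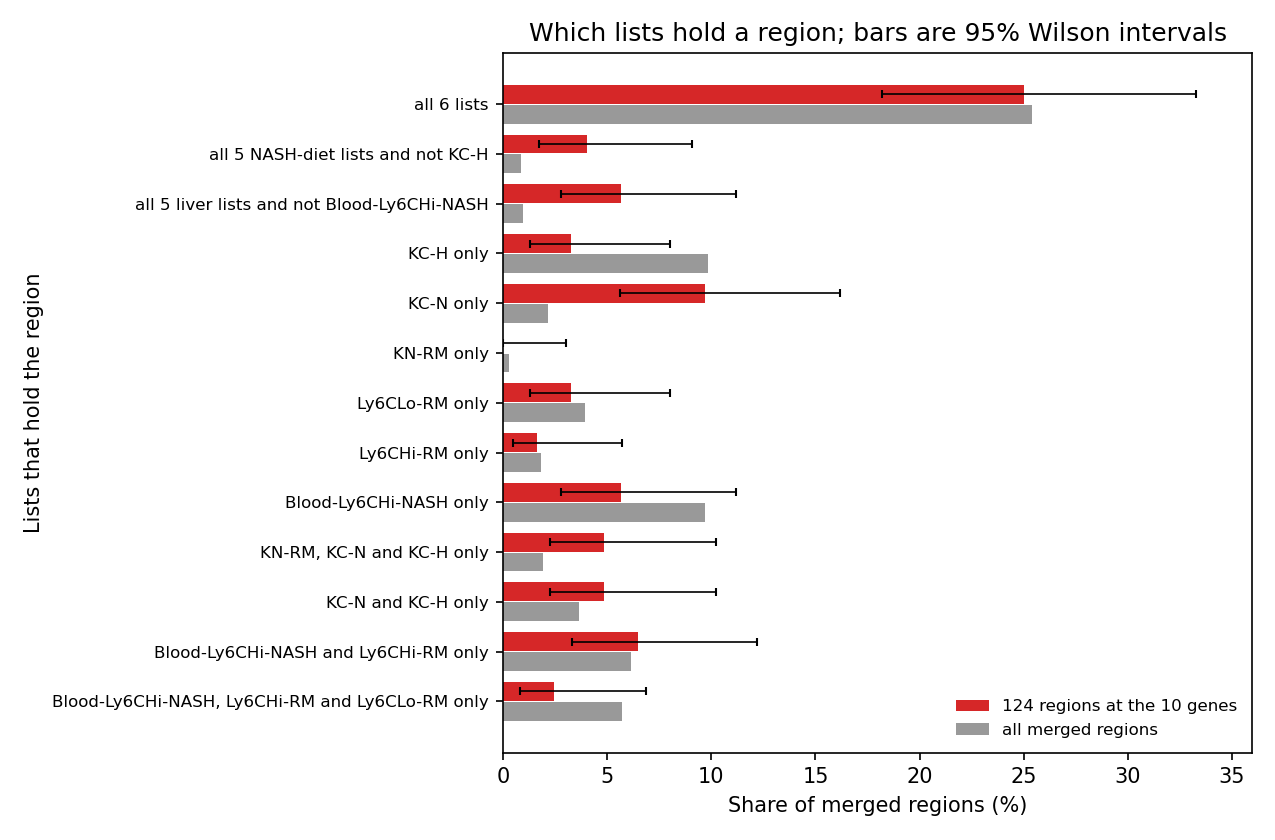
Share of merged regions, in percent, held by each set of lists, for the 124 regions at the 10 genes (red, with 95% Wilson intervals) and for all 100354 merged regions (grey). The red bar is above the grey one for KC-N only (9.68% against 2.13%) and below it for KC-H only (3.23% against 9.84%), while the bars for all 6 lists are nearly equal.

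A promoter peak in all 6 lists was found for 40.8% of genes with a promoter entry, and for Lgals3, Plin2 and Hilpda of the 7 members with one. Starts of the other 4 varied: Trem2 and Spp1 were held by 5 lists, Gpnmb by 3 and Cd9 by 1.

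The question of diet was put by KC-N and KC-H, the same sorted population on the NASH and the control diet. Of the 10 genes, 8 had more peaks in KC-N, against 13.2% of all genes, although KC-N was the shorter list. In each comparison of 2 lists, all genes means those with a peak in at least 1 of the 2 (14382 here). Genes in neither share had equal numbers in the 2 lists. Tyrobp alone had fewer in KC-N than in KC-H, as 50.6% of all genes had, and Lgals3 had equal numbers. With every list shortened to its 34293 best-scored peaks, 8 had more in KC-N and none had more in KC-H, against 22.9% and 25.0% of all genes. The set changed, as Lgals3 entered it and Hilpda had 8 in both lists. These shares were 2856 and 3116 of 12458 genes, and the others tied, as 2 of the 10 did. In the full lists the 10 genes had a median of 9 KC-N and 7 KC-H peaks. Over genes with a peak in any list that median was 2 in each. Genes with like numbers of peaks were not compared. The smallest differences, KC-N first, were at Trem2 (4 and 3), Spp1 (1 and 0), Lpl (3 and 2) and Lgals3 (10 and 9). A high-scoring peak of a list was called list-specific when the entire second list had no peak overlapping it by 1 bp. Among 47 high-scoring peaks of KC-N at the 10 genes, 6 were list-specific against KC-H (12.8%, 5.98% to 25.2%), against 3.73% over the list. They lay at Plin2 (scores 70 and 42), Lgals3 (70), Cd9 (66), Fabp5 (60) and Trem2 (38), each over 1 kb from any peak centre of KC-H. Among 38 high-scoring peaks of KC-H, 2 were list-specific against KC-N (5.26%, 1.46% to 17.3%), at Plin2 (58) and Tyrobp (55), near the 5.69% of the whole list.

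KN-RM and KC-N differ in Tim4 on the same diet. None of 32 high-scoring KN-RM peaks at the 10 genes was list-specific against KC-N (interval 0% to 10.7%), against 1.03% of the list, so every such KN-RM peak had a counterpart in KC-N. In the other direction, 2 of 47 were absent from KN-RM (4.26%, 1.17% to 14.2%), against 6.32%, at Plin2 and Trem2. Only Tyrobp had more peaks in KN-RM, against 4.88% of genes, and 8 had fewer than in KC-N, against 56.3%. With lists of equal length, 3 genes had more in KN-RM, against 23.4% of all genes, and 4 had more in KC-N, against 22.4%.

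Ly6CHi-RM and Blood-Ly6CHi-NASH set Ly6C-high cells of the liver beside those of the blood. Among 47 high-scoring peaks of Ly6CHi-RM at the 10 genes, 5 were absent from the blood list (10.6%, 4.63% to 22.6%), against 1.67% of the list. The peaks at Hilpda scored 96, 87 and 53, that at Lgals3 51 and that at Fabp5 47. Hilpda thus held 3 of the 5. With a 20 kb gene window the count was 2, and with the best-scored 25% it was also 2, with fewer peaks examined in both. Among 38 high-scoring blood peaks, 1 was absent from Ly6CHi-RM (2.63%, 0.466% to 13.5%), at Spp1 with a score of 53, against 2.18%. More peaks in Ly6CHi-RM were found for 6 genes, against 14.8% of all genes, and fewer for Spp1 and Lpl, against 40.6%.

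Ly6CLo-RM and Ly6CHi-RM are both Cd11b-Hi recruited liver macrophages. Of 35 high-scoring Ly6CLo-RM peaks at the 10 genes, 2 were absent from Ly6CHi-RM (5.71%, 1.58% to 18.6%), both at Cd9, against 2.96%. Of 47 high-scoring Ly6CHi-RM peaks, 6 were absent from Ly6CLo-RM (12.8%, 5.98% to 25.2%), against 3.89%. With equal-length lists the count was 1, and with the best-scored 25% it was also 1, with fewer peaks examined in both. The 6 were the Trem2 start (74), Lgals3 (90), Fabp5 (66 and 47), Spp1 (58) and Gpnmb (47). The Lgals3 peak lay 301 bp from a Ly6CLo-RM centre, so it borders an open site of that list. Cd9 alone had more peaks in Ly6CLo-RM, against 17.2% of genes, and 7 genes had fewer, against 39.4%.

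KN-RM, the shortest list, was also set beside Ly6CLo-RM. Of 32 high-scoring KN-RM peaks at the 10 genes, 5 were absent from Ly6CLo-RM (15.6%, 6.86% to 31.8%), against 5.39%: 2 at Lgals3, 2 at Hilpda and the Trem2 start. Of these, 3 had a Ly6CLo-RM centre within 1000 bp, which leaves 2, and with the best-scored 25% the count was 1. Of 35 high-scoring Ly6CLo-RM peaks, 7 were absent from KN-RM (20.0%, 10.0% to 35.9%), near the 18.9% of the whole list, with 4 at Fabp5 and 3 at Cd9. That count was 2 with equal-length lists, 1 with the best-scored 25% and 3 with a 20 kb gene window. More peaks in KN-RM were found for 4 genes (Gpnmb, Lpl, Lgals3 and Hilpda), against 8.33% of all genes, and fewer for 4 (Cd9, Spp1, Fabp5 and Plin2), against 62.2%. With equal-length lists, 7 had more in KN-RM, against 26.9% of all genes, and 2 had fewer (Cd9 and Fabp5), against 29.5%.

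**Figure D4:**
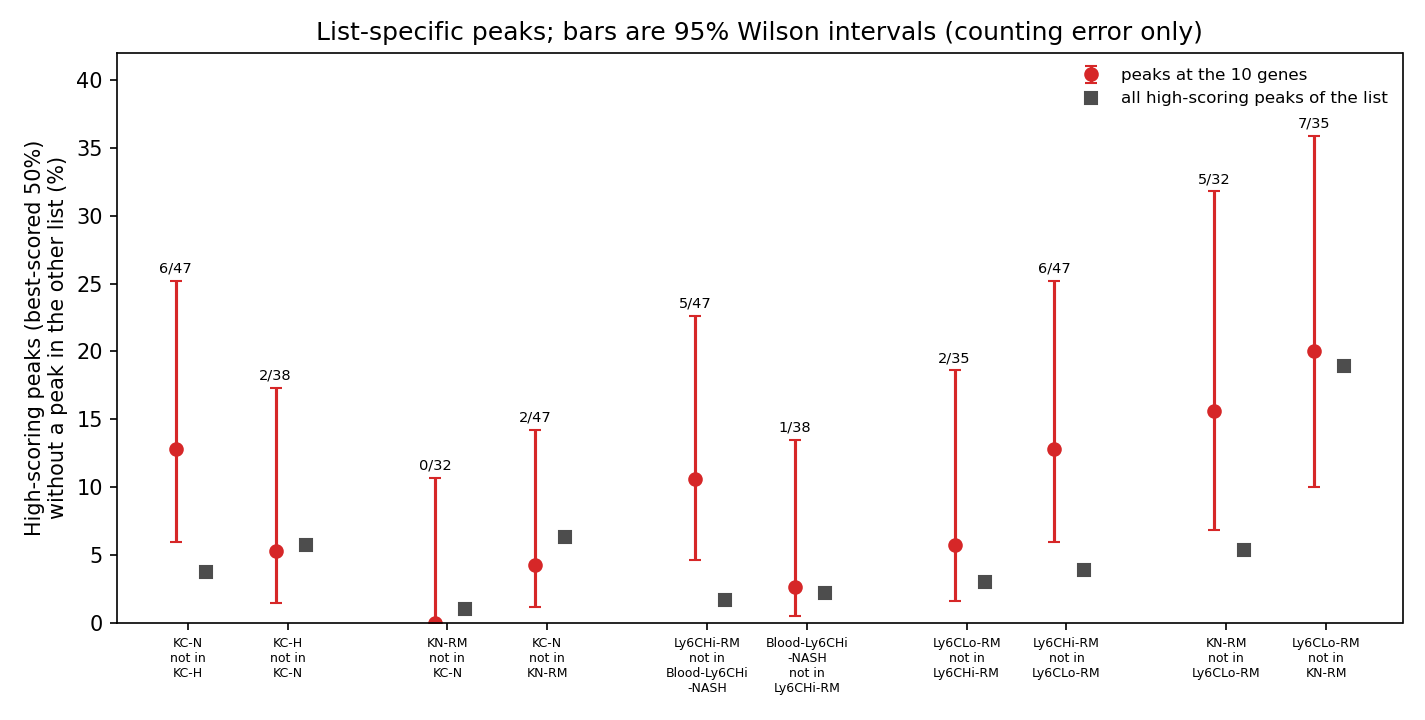
Share of high-scoring peaks, in percent, without an overlapping peak in the other list, for the 10 genes (red circles, 95% Wilson intervals, with the count of peaks above) and for all high-scoring peaks of the list (grey squares), in both directions of the 5 comparisons. The red interval lies above the grey square for KC-N against KC-H (12.8% and 3.73%), Ly6CHi-RM against blood (10.6% and 1.67%), Ly6CHi-RM against Ly6CLo-RM (12.8% and 3.89%) and KN-RM against Ly6CLo-RM (15.6% and 5.39%); with the best-scored 25% in place of 50%, the counts of the last 3 were 2, 1 and 1.

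Other genes of the pathway were counted in the same way. For these genes the number of high-scoring peaks examined is not given, so their list-specific counts carry no share. Over the whole lists, 3.73% of high-scoring KC-N peaks were list-specific against KC-H, and 5.69% in the other direction. Of 13 genes of the TREM locus and of TREM2 signalling, 2 had more peaks in KC-N and 7 had more in KC-H. This was near the 13.2% and 50.6% of all genes. The totals were 121 KC-N and 154 KC-H peaks. Syk, the kinase that TYROBP recruits, had 20 peaks in KN-RM, 27 in KC-N, 22 in Ly6CLo-RM, 28 in Ly6CHi-RM, 25 in Blood-Ly6CHi-NASH and 25 in KC-H, and 1 list-specific peak in KC-N against KC-H. Csf1r, the receptor for the macrophage growth factor CSF1, had 10 in KC-N and 16 in KC-H, with 1 list-specific peak in KC-H. Treml1 had no peak in any list, while Treml4 had 7 in KC-N and 8 in KC-H. Treml1 is 1 of the 13, but the shares of all genes leave out genes without a peak.

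Of 21 further genes of lipid-associated macrophages, 9 had more peaks in KC-N and 8 had more in KC-H, against 13.2% and 50.6% of all genes. The share with more KC-N peaks was thus above that of all genes, as it was at the 10 genes. List-specific peaks numbered 6 in KC-N, and 5 in KC-H, where 2 each were at Apoe, the lipoprotein ligand, and Nceh1, a cholesterol ester hydrolase. In KN-RM against Ly6CLo-RM the same list had 12 in KN-RM and 3 in Ly6CLo-RM, led by Igf1 and Nceh1 with 2 each in KN-RM. Over the whole lists, the list-specific shares were 5.39% in KN-RM and 18.9% in Ly6CLo-RM. Igf1, a growth factor gene, had 11 peaks in KN-RM, 13 in KC-N, 4 in Ly6CLo-RM, 9 in Ly6CHi-RM, 10 in Blood-Ly6CHi-NASH and 18 in KC-H. Of 18 droplet and lipase partners, 3 had more peaks in KC-N and 6 had more in KC-H, against the same 13.2% and 50.6%. The 18 partners had 1 list-specific peak in KC-N and 3 in KC-H. Among them, Plin4, G0s2, Cidec, Gpihbp1 and Vldlr had no peak in KC-N or KC-H. The shares of all genes leave such genes out, so these sets are unlike. Pnpla2, which encodes ATGL, had 5 KC-N peaks and 7 KC-H peaks. In total peaks, these 3 lists had 121, 155 and 48 in KC-N and 154, 177 and 54 in KC-H, against 89 KC-N and 68 KC-H peaks at the 10 genes. These totals do not show the 9 of 21 further lipid-associated macrophage genes with more KC-N peaks.

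Of 12 housekeeping genes, 1 had more peaks in KC-N and 6 had more in KC-H, against 13.2% and 50.6% of all genes. They had no list-specific KC-N peak and 4 KC-H ones. Between KN-RM and Ly6CLo-RM, the same genes had 1 list-specific peak in KN-RM and 16 in Ly6CLo-RM. The shares over the whole lists also differed by direction, at 5.39% in KN-RM and 18.9% in Ly6CLo-RM. At the 10 genes there were 5 list-specific peaks of KN-RM and 7 of Ly6CLo-RM. The part of list differences at housekeeping genes in those results was not tested.

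Markers of the sorted cells moved with the same lists. The 6 Kupffer cell markers had 21 peaks in KN-RM, 34 in KC-N, 9 in Ly6CLo-RM, 16 in Ly6CHi-RM, 19 in Blood-Ly6CHi-NASH and 87 in KC-H, opposite in direction to the 10 genes between KC-N and KC-H. Of all genes, 50.6% also had more peaks in KC-H and 13.2% had more in KC-N. Timd4, which encodes the Tim4 used in the sort, had 1 KC-N peak and 17 KC-H peaks, and Clec4f, a Kupffer cell lectin, had 7 KC-N peaks and 18 KC-H peaks. Each of the 6 had a peak in both Tim4-Pos lists, and 4 of 6 in KN-RM, where Timd4 and Marco had none. The 5 monocyte markers had 11 peaks in KN-RM, 16 in KC-N, 15 in Ly6CLo-RM, 28 in Ly6CHi-RM, 29 in Blood-Ly6CHi-NASH and 18 in KC-H, and Chil3 had a peak in both Ly6C-high lists only. The 5 dendritic cell markers had 11 in KN-RM, 15 in KC-N, 35 in Ly6CLo-RM, 29 in Ly6CHi-RM, 34 in Blood-Ly6CHi-NASH and 22 in KC-H. Endothelial markers had 22 KC-N peaks and 34 KC-H peaks, hepatocyte markers 3 of each, and stellate cell markers 5 KC-N and 6 KC-H peaks. T and NK cell markers had 8 KC-N and 10 KC-H peaks, and B cell markers 2 KC-N and 6 KC-H peaks. The 5 cholangiocyte markers had 6 KC-N peaks and 4 KC-H peaks, the same direction as the 10 genes, but all of them were at Epcam. Krt19, Krt7, Sox9 and Cftr had none in either list. The 5 neutrophil markers had 9 Ly6CHi-RM peaks and 10 Blood-Ly6CHi-NASH peaks, and 1 to 3 in each other list. Hepatocyte markers had 13 peaks in the blood list, 11 of them at Alb, against 1 to 3 in each liver list. The part of any other cell type in the results at the 10 genes was not tested. In sorted bulk samples, more cells with an open site and a more open site per cell cannot be told apart.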

How the data were processed

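ATAC-seq peaks of 12 libraries in 6 groups of 2 were deposited as 1 list per group; the lists are named for the irreproducible discovery rate. Each deposited peak has a signal, read here as the authors' normalized tag count of unstated scaling, and a score, a whole number. Bowtie2, HOMER and DESeq2, and the builds mm10 and GRCm38, are named per the submitters' processing notes, without versions or roles. For read filters, the transposase shift and library depth, the sources used here give nothing. Ties in score were ordered by the signal, which had no other use.

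Genes were placed by RefSeq's GRCm38.p6 annotation (21900 protein-coding genes), without exons, introns or untranslated regions. Peaks were merged across lists where they overlapped by 1 bp. List-specific peaks, regions by list, peaks per gene and motifs were counted, with 95% Wilson intervals. The functions were tested on simulated lists. The 10 genes and the gene lists were chosen with earlier results of these data known. All 10 are named; regions are named at a start or gene end, at the highest score of a gene in a list, where list-specific or by list membership, the last chosen after their values were seen. Up to 4 genes per further list are named by their difference in list-specific peaks. Treml1, Treml4, the droplet and lipase partners without a peak in KC-N or KC-H and the markers named were chosen after their values were seen. A further result is not reported here. Alternatives were all peaks or the best 25%, an overlap of 50%, absence within 1000 bp, a 20 kb window and lists of equal length. Intervals were computed with scipy 1.17.1, tables with pandas 2.3.3 and numpy 2.4.6, and figures with matplotlib 3.10.9, under Python 3.11.15.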

Additional observations from a re-analysis of the deposited data

How the results depend on the processing

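Of 91 values under other settings, 49 stayed within 1.5 times the reported count and 42 did not. The 6 list-specific peaks of KC-N against KC-H were within that range under each setting but all peaks. With all peaks in place of the best-scored 50%, the counts were 28 for KC-N against KC-H and 7 for KC-H against KC-N, 1 for KN-RM against KC-N and 31 for KC-N against KN-RM, 18 for Ly6CHi-RM against blood and 11 for blood against Ly6CHi-RM, 6 for Ly6CLo-RM against Ly6CHi-RM and 21 for Ly6CHi-RM against Ly6CLo-RM, and 14 for KN-RM against Ly6CLo-RM and 22 for Ly6CLo-RM against KN-RM. More peaks enter those counts by construction. With the best 25%, they were 0 for KC-H against KC-N, 0 for KC-N against KN-RM, 2 for Ly6CHi-RM against blood, 0 for blood against Ly6CHi-RM, 0 for Ly6CLo-RM against Ly6CHi-RM, 1 for Ly6CHi-RM against Ly6CLo-RM, 1 for KN-RM against Ly6CLo-RM and 1 for Ly6CLo-RM against KN-RM. With equal-length lists, they were 0 for KC-H against KC-N, 1 for KN-RM against KC-N, 0 for KC-N against KN-RM, 0 for blood against Ly6CHi-RM, 1 for Ly6CLo-RM against Ly6CHi-RM, 1 for Ly6CHi-RM against Ly6CLo-RM and 2 for Ly6CLo-RM against KN-RM. Those lists held 50 peaks at the 10 genes in Ly6CHi-RM, 37 in blood and 44 in KC-H, and 17 regions common to all 6. In them, 0 genes had more peaks in KC-H than in KC-N, 3 had more in KN-RM than in KC-N and 4 the reverse, 2 had more in Ly6CLo-RM than in Ly6CHi-RM, and 7 had more in KN-RM than in Ly6CLo-RM and 2 the reverse. With a 20 kb window, the count was 2 for Ly6CHi-RM against blood and 3 for Ly6CLo-RM against KN-RM, KC-H had 44 peaks at the 10 genes, and 3 regions were in all liver lists and not in blood. With absence taken as no centre within 1000 bp, the count was 1 for KC-H against KC-N and 2 for KN-RM against Ly6CLo-RM. Without the KN-RM list, 8 regions were in the NASH-diet lists and not in KC-H. The last, the 20 kb count of liver regions not in blood, and the equal-length counts of genes with more peaks were added after the data were seen. By construction, fewer peaks can enter with the best 25%, a 20 kb window or absence within 1000 bp. Without KN-RM, fewer lists have to hold a region. Equal-length lists shorten both the list examined and the list set beside it. The counts alone do not show whether a share moved with them, and this was not tested.

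No paired analysis was possible because each list was made from both libraries of its group and carries no replicate number. No library was left out, since the lists do not separate them. The lists give no value for a region below the authors' threshold, and KN-RM, with 34293 peaks, is the shortest.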
